A study of Mus musculus with 36 samples.

Results

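The subject here is 10 genes of the brain endothelium and the blood-brain barrier, out of 24940 genes counted: Cldn5, Pecam1, Cdh5, Kdr, Flt1, Tek, Slc2a1, Mfsd2a, Abcb1a and Vwf. They were taken by gene symbol from the deposited count table, and all 10 were found. Poly(A) RNA had been sequenced from 36 mouse libraries. Sorted microglia gave 6 of these and bulk tissue 30, taken in male mice from the cortex, the corpus callosum or the striatum of controls or of MBP29-hα-syn animals. These model multiple system atrophy (MSA) by making human α-synuclein from the promoter of myelin basic protein, thus in oligodendrocytes, and are called MSA mice here. For the bulk tissue, mice of both genotypes were fed for 12 weeks from the age of 4 weeks, either standard chow (no drug) or chow holding 1200 mg/kg of PLX5622, which blocks the CSF1 receptor that microglia need to survive. Every cortex group had 3 libraries. The callosum groups had 2, except untreated controls with 3, and the striatum groups had 2, except untreated MSA mice with 3. Microglia were sorted from the forebrain of 16-week-old mice as CD11b+ CD45low cells, with 3 libraries per genotype and no drug arm. The labels tag the microglia controls as heterozygous and the MSA microglia as homozygous for MBP29, while the protocol names wild-type controls. In addition, 2 control striatum libraries titled PLX carry a no-treatment tag, and they were grouped by title.

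Brain capillaries are lined by endothelial cells sealed by tight junctions, in which claudin-5 (Cldn5) is the main strand protein, and held together by VE-cadherin (Cdh5) and PECAM-1 (Pecam1). These cells respond to vascular endothelial growth factor (VEGF) through VEGFR2 (Kdr), the main signalling receptor, and VEGFR1 (Flt1), which binds VEGF-A tightly, signals weakly and limits how much reaches VEGFR2, and to angiopoietins through Tie2 (Tek). Passage across the barrier is set by transporters, among them the glucose transporter GLUT1 (Slc2a1), the lysophospholipid carrier Mfsd2a, which also restrains vesicular transport, and the drug efflux pump P-glycoprotein (Abcb1a). Von Willebrand factor (Vwf) is stored in endothelial cells, most of all in larger vessels, and released in clotting. VEGFR1 is also known on monocytes and macrophages, and microglia are the resident macrophages of the brain.

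The promoters of 3 members are shown to set beside their results. Flt1 was the 1 member past the test, Kdr encodes its partner receptor, and Mfsd2a ran against most of the others across the bulk libraries. RefSeq promoters (GRCm38.p6) were at hand for 7 of the 10 members. Each line gives the 250 bases before the RefSeq start site, 5′ to 3′ on the gene's strand, with capitals marking AGGAA or CGGAA on either strand (TTCCT or TTCCG when read from the other strand), the core bound by ETS factors such as ERG and FLI1 of endothelial cells.
Flt1, chr5:147726012-147726261, minus strand: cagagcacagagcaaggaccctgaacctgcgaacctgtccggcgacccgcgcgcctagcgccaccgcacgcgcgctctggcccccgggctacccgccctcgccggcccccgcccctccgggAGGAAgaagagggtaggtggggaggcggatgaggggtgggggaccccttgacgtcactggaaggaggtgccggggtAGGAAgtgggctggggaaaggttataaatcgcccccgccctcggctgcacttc
Kdr, chr5:75978456-75978705, minus strand: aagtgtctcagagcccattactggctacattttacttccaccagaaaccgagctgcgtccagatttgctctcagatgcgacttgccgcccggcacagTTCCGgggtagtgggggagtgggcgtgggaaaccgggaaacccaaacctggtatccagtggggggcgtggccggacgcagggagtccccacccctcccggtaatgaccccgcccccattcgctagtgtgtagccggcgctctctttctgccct
Mfsd2a, chr4:122961189-122961438, minus strand: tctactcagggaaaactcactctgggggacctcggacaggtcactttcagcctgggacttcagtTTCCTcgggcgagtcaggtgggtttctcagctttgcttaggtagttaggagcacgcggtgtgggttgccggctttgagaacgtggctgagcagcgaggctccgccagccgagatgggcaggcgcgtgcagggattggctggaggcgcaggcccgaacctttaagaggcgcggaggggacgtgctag
The Flt1 window holds AGGAA 2 times and TATAAA 1 time, the Kdr window holds CGGAA 1 time, and the Mfsd2a window holds AGGAA 1 time. At least 1 of AGGAA and CGGAA lies in 71.4% of all 32851 windows of this length, and TATAAA in 12.4%, so these matches describe the letters only. ACGTG, 1 form of the core bound by hypoxia-inducible factors, occurred 2 times in the Mfsd2a window, 1 time in that of Slc2a1 and in none of the other 5, and in 16.6% of all windows. GCGTG, another form of that core, was not counted, and it can be read on either strand in each window shown above. The Flt1 and Kdr windows start from RefSeq sites 23 and 27 bases from the starts in the deposited table.

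By the deposited coordinates (mm10), Flt1 spans chr5:147562196-147725988 and Kdr chr5:75933270-75978428, both on the minus strand, and Abcb1a spans chr5:8567091-8748575. Tek lies at chr4:94739289-94874976, Slc2a1 at chr4:119108745-119137329 and Mfsd2a at chr4:122946851-122961188. The others are Cldn5 at chr16:18776847-18778262, Pecam1 at chr11:106654213-106715281, Cdh5 at chr8:104101625-104144502 and Vwf at chr6:125552948-125686679. Counts cover whole transcripts of 1413 bases (Cldn5) to 8780 bases (Vwf). Rundc3b overlaps Abcb1a on the other strand, Abcb1b is its close copy, and Gm29682 overlaps Cdh5. Reads of such neighbours may not be fully told apart, since the sources used here do not give the use of strand in counting.

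Reads assigned to genes numbered 4.36 to 28.6 M per library, or 59.5 to 84.5% of each library's total, and 6 bulk libraries fell under 70%. Which libraries came from one animal is not in the labels, and p-values here cover the spread among libraries, which may in part be technical. The summed level of 12 homeostatic microglia genes was 530 to 1110 CPM (assigned reads scaled to library size) in the 16 bulk libraries without drug, 13.1 to 37.2 CPM in the 7 control libraries under PLX5622 and 144 to 309 CPM in the 7 MSA libraries under PLX5622. In sorted microglia it was 60438 to 65060 CPM.

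In untreated control tissue, all 10 members were detected in every library. Levels between genes are compared on the deposited TPM, which divides by transcript length. In cortex Slc2a1 was highest at 51.8 ± 22.3 TPM (SD, n = 3), followed by Cldn5 at 27.2 ± 19.5 and Mfsd2a at 17.2 ± 9.32 TPM. Flt1 came next at 8.12 ± 7.51 TPM, and Kdr was lowest at 1.22 ± 1.24 TPM. The same 4 genes led in striatum in the same order (Slc2a1 72.4 ± 25.5, Cldn5 17.7 ± 4.47, Mfsd2a 15.4 ± 5.17 and Flt1 7.90 ± 4.46 TPM, n = 2). In corpus callosum Mfsd2a (15.5 ± 3.75 TPM, n = 3) was above Cldn5 (12.0 ± 3.27 TPM), a gap within the spread, as were most gaps between neighbours in the order. In control cortex Pecam1, Abcb1a, Cdh5, Tek and Vwf lay between 4.47 and 1.28 TPM in that order, with SDs of 1.19 to 3.31 TPM, so none of them was set apart from the next.

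Flt1 was higher in microglia of MSA mice than in control microglia, and none of the 5 other members tested there passed. Flt1 stood at 0.536, 1.35 and 0.661 CPM in the 3 control microglia libraries (4, 11 and 8 reads) and at 7.34, 7.92 and 7.56 CPM in the 3 MSA libraries (53, 70 and 45 reads). All MSA libraries were above all control libraries, as they were for 12.4% of all genes tested, and the MSA values were close to each other. The log2 change was 3.12 ± 0.32 (SE; edgeR quasi-likelihood test, Benjamini-Hochberg adjusted p = 0.00114, higher in 3 of 3 libraries). Among 11810 genes tested 72 passed (0.61%), 50 of them higher (0.423%), and Flt1 was the 7th of those 50 by fold and the 13th by p. Even so the level was low: 1.74 TPM in MSA microglia, against 3.08 to 12.9 TPM for group means in the bulk tissue. The log2 change was 2.93 to 3.57 with each library left out in turn, with adjusted p of 0.00133 to 0.0115. With the share of reads assigned to genes as a covariate, a check chosen after the data were seen, it was 3.14 ± 0.47 with an adjusted p of 0.0784, which did not pass, and that share was 73.5 to 74.7% in controls and 72.3 to 73.6% in MSA microglia.

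**Figure D1:**
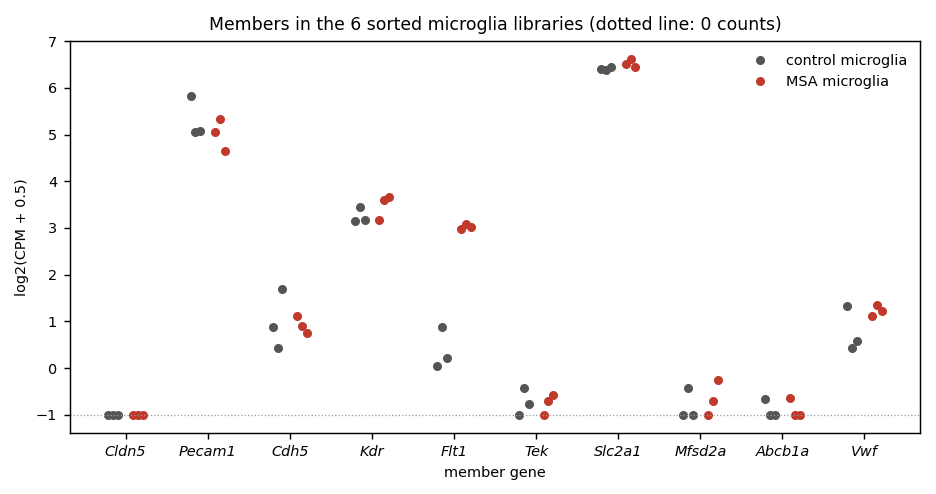
Level of each member in the 6 sorted microglia libraries as log2(CPM + 0.5), 1 point per library, control in grey and MSA in red; the dotted line marks 0 counts. Flt1 lies at 0.536 to 1.35 CPM in controls and 7.34 to 7.92 CPM in MSA microglia, while Cldn5 has 0 counts in all 6 libraries.

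The members split in the same microglia: 4 were at or near 0, while Pecam1, Kdr and Slc2a1 were well detected and Cdh5 and Vwf were low. Cldn5 had 0 reads in all 6 libraries together, which allows up to 0.0603 CPM from 3 counts (counting error only), and Abcb1a had 2 reads, Tek 5 and Mfsd2a 5. These 4 were too low to be tested. Of 25 further endothelial genes, 11 stayed under 0.5 CPM in every microglia library, among them Emcn, Sox17 and Ly6c1 (picked after their values were seen), and 4 were at 10 CPM or more in every one: Eng, Fli1, Cd34 and S1pr1. None of the 8 tested passed. The summed level of 15 pericyte and smooth muscle genes was 7.43 to 9.42 CPM in control and 17.5 to 18.5 CPM in MSA microglia. Of the 2 tested, Cspg4, the NG2 proteoglycan of pericytes and oligodendrocyte precursors, rose from 0.381 ± 0.127 to 10.5 ± 0.582 CPM (SD, n = 3 each; log2 change 4.64 ± 0.29, adjusted p = 3.03e-05), while Pdgfrb had -1.55 ± 0.39 (adjusted p = 0.137) and Rgs5, Kcnj8 and Notch3 stayed under 0.5 CPM in all 6 libraries. Choroid plexus genes summed to 544 to 1233 CPM in control and 879 to 1681 CPM in MSA microglia, ranges that overlap. The part of such other cells in the Flt1 result was not tested.

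Not every member was absent from sorted microglia. Slc2a1 was at 82.5 to 98.4 CPM, Pecam1 at 24.7 to 56.5 CPM and Kdr at 8.30 to 12.1 CPM, which is in TPM a median of 48.4, 14.3 and 2.50 against 45.2, 3.43 and 1.26 over the 30 bulk libraries. Slc2a1 was at 82.5 to 86.4 CPM in controls and 86.7 to 98.4 CPM in MSA microglia. The groups did not overlap, and 12.4% of all genes tested were likewise higher in MSA microglia. Between genotypes they differed by log2 0.08 ± 0.07 (Slc2a1, adjusted p = 0.739), -0.36 ± 0.29 (Pecam1, 0.742) and 0.20 ± 0.18 (Kdr, 0.755). Cdh5 (0.856 to 2.72 CPM) and Vwf (0.856 to 2.04 CPM) were low in both groups, with log2 changes of -0.33 ± 0.46 and 0.52 ± 0.41 and adjusted p of 0.854 and 0.713. On the ligand side, Vegfb was at 85.8 to 94.0 CPM in the 6 libraries, Vegfa at 2.81 to 8.72 CPM, and Pgf, a ligand of VEGFR1 and not of VEGFR2, had 0 reads in all 6. The VEGF co-receptor Nrp1 was at 8.57 to 9.78 CPM in controls and at 32.7, 27.2 and 279 CPM in MSA microglia, a log2 change of 3.57 ± 1.28 that did not pass (adjusted p = 0.460).

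In bulk tissue no member passed the test in any of 18 comparisons by the main edgeR fit. DESeq2 called 1 (Tek, for the drug in MSA striatum, where it called 268 of 14872 genes). Some alternative edgeR fits called members too, as given below. Fewer endothelial cells and less RNA per cell cannot be told apart in such tissue. The 30 values of a member spread by 4.12 times (Slc2a1) to 18.5 times (Cdh5) between the lowest and highest library. MSA striatum without drug, replicate 2, had the highest value of 7 members: Cldn5, Pecam1, Cdh5, Kdr, Flt1, Abcb1a and Tek. These 30 values of each gene are shown in the plot of levels by region and group.

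**Figure D2:**
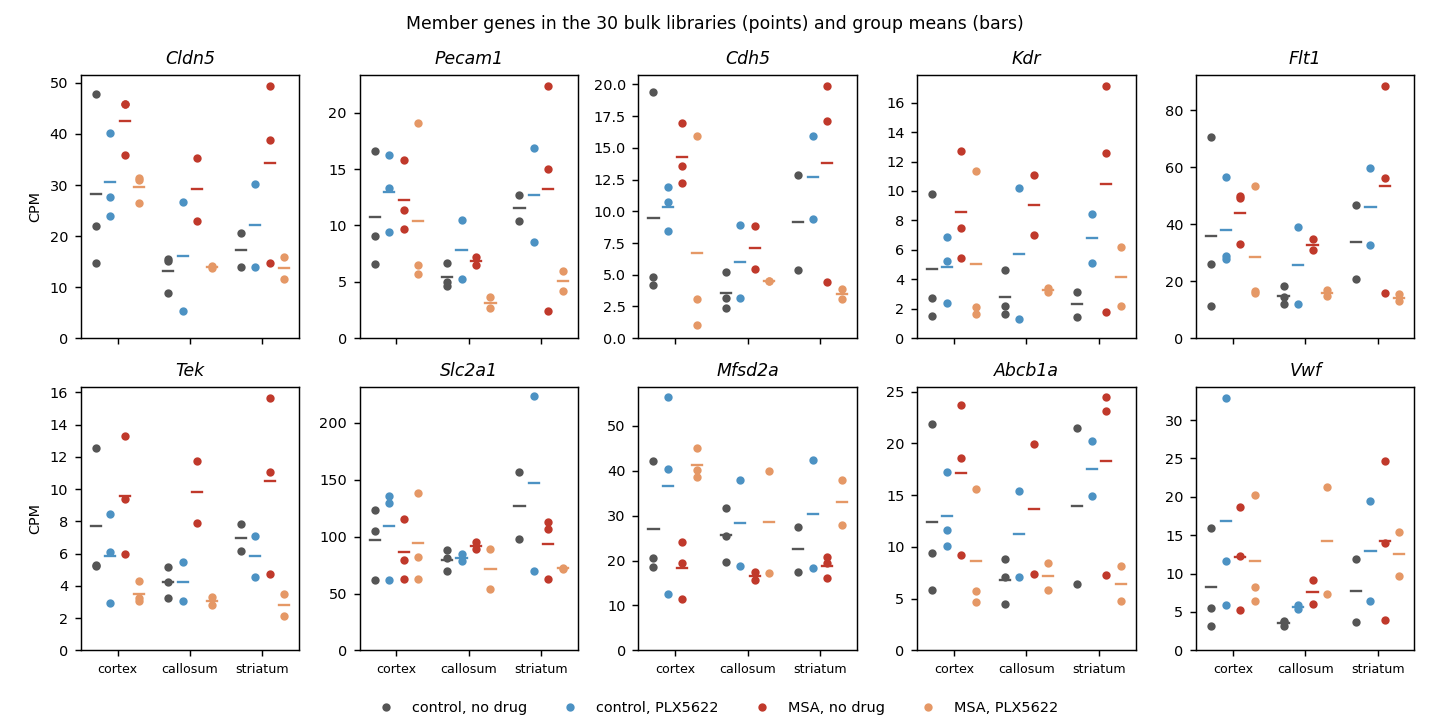
CPM of each member in the 30 bulk libraries by region, 1 point per library with the group mean as a bar, each panel on its own linear axis from 0. In corpus callosum and striatum the red points (MSA, no drug) of Flt1 and Tek lie above the orange ones (MSA, PLX5622), while in striatum Mfsd2a runs the other way.

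Corpus callosum, the white matter rich in oligodendrocytes, had higher values of 9 members in untreated MSA mice than in untreated controls, and lower values of 8 members in treated than in untreated MSA mice, but no difference passed the test. Mfsd2a ran the other way in both comparisons, and Vwf was higher with the drug as well. Flt1 was at 18.4, 14.4 and 12.0 CPM in untreated controls and 30.8 and 34.8 CPM in untreated MSA mice, and under PLX5622 at 39.0 and 12.1 CPM in controls and 16.8 and 14.6 CPM in MSA mice. Untreated MSA libraries thus lay above both untreated controls and treated MSA mice, while the 2 treated controls lay apart, 1 above every other callosum library and 1 among the untreated controls. Tek was at 5.19, 4.24 and 3.22 CPM in untreated controls, 7.90 and 11.8 CPM in untreated MSA mice and 3.34 and 2.79 CPM in treated MSA mice, again without overlap around the MSA group. Kdr showed the same order, at 4.65, 1.64 and 2.21, then 7.02 and 11.1, then 3.12 and 3.39 CPM.

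For MSA against control callosum without drug the log2 changes of the receptors were 1.16 ± 0.42 (Flt1, adjusted p = 0.470), 1.23 ± 0.43 (Tek, 0.447) and 1.68 ± 0.73 (Kdr, 0.573). The junction genes had 1.15 ± 0.54 (Cldn5), 1.05 ± 0.53 (Cdh5) and 0.37 ± 0.42 (Pecam1), and Mfsd2a had -0.62 ± 0.41. The median of the 10 members was 1.10, beside 0.01 over all genes, 9 were above 0, and 4 had an unadjusted p under 0.05, as did 8.53% of all genes. Groups did not overlap, higher in MSA, for 7 of 10 members and for 17.2% of all genes. None of the 10 passed, and 0.321% of 15881 genes did. In the same libraries choroid plexus genes such as Ttr summed to 8449 and 3293 CPM in MSA mice and 260 to 363 CPM in controls, and 11 of 12 rose. Their part in the members' values was not tested.

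For the drug in MSA callosum the values ran the other way, with -1.78 ± 0.49 for Tek (adjusted p = 0.426), -1.18 ± 0.47 for Flt1 (0.582), -1.24 ± 0.47 for Pecam1 (0.582) and -1.57 ± 0.82 for Kdr (0.586). Slc2a1 had -0.46 ± 0.29, Mfsd2a 0.69 ± 0.44 and Vwf 0.75 ± 0.47. The median was -1.13 and 3 members had an unadjusted p under 0.05, as did 8.48% of all genes. For 6 members (Cldn5, Pecam1, Cdh5, Kdr, Flt1 and Tek) treated values lay below all untreated ones, as they did for 19.0% of all genes, while 0.0693% of genes and no member passed. This comparison and the one between genotypes share the untreated MSA libraries, so the opposite signs are not separate observations. The summed choroid plexus genes were 422 and 481 CPM in the treated MSA libraries.

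In control callosum the drug gave a median of 0.61, all 10 values above 0, none past the threshold (0.46% of all genes passed), and a largest value of 1.07 ± 0.73 for Kdr. MSA against control under the drug gave a median of -0.57, from -1.43 ± 0.47 for Pecam1 (adjusted p = 0.747) to 1.24 ± 0.48 for Vwf (0.962), with 0.195% of all genes past the threshold. The genotype by drug interaction, which asks whether the drug acted differently in MSA and control mice, had a median of -1.70 over the members. It was -1.98 ± 0.63 for Flt1 (adjusted p = 0.771) and -2.64 ± 1.09 for Kdr (0.959), with no member and 0.264% of genes called. The control PLX5622 replicates differed (Flt1 39.0 and 12.1, Cldn5 26.7 and 5.37 CPM, with 59.5% of reads assigned in the second). Without replicate 2, with 1 library then standing for that group and taken to vary like the others, the interaction was called for Flt1 (-2.60 ± 0.41, adjusted p = 0.00687), Kdr (-3.45 ± 0.76, 0.0365) and Cldn5 (-2.21 ± 0.48, 0.0356), beside 0.944% of genes called lower. Without replicate 1 the median was -0.47, and none was called. Choroid plexus genes moved in the same comparisons: with all libraries, 10 of 12 were called lower in the interaction, with Ttr at -6.28 ± 0.60 (adjusted p = 0.00513), and 8 of 12 rose with the drug in control callosum, where their sums were 1556 and 1494 CPM. Their part in the members' values was not tested.

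Striatum is the basal ganglia region that degenerates in the striatal form of MSA. Its untreated MSA replicate 2 had the highest library value of 7 members. Slc2a1 was highest in striatum as well, at 223 CPM in replicate 2 of the treated controls. In untreated MSA mice Flt1 was at 15.8, 88.6 and 56.1 CPM, against 15.5 and 12.9 CPM under PLX5622, 20.8 and 46.9 CPM in untreated controls and 32.8 and 59.6 CPM in treated controls. Cdh5 followed, at 4.39, 19.8 and 17.2, then 3.86 and 3.12, then 5.40 and 12.9, then 9.39 and 16.0 CPM. In both genes the treated MSA libraries were below the 3 untreated MSA libraries and all 4 control libraries, and replicate 1 of the untreated MSA group was close to the treated ones.

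The drug in MSA striatum gave log2 changes of -1.97 ± 0.64 for Cdh5 (adjusted p = 0.269), -1.90 ± 0.70 for Flt1 (0.310), -1.85 ± 0.52 for Tek (0.208), -1.51 ± 0.62 for Abcb1a (0.329), -1.38 ± 0.72 for Pecam1 (0.414), -1.34 ± 0.80 for Kdr (0.457) and -1.31 ± 0.49 for Cldn5 (0.310). Slc2a1 (-0.36 ± 0.45) and Vwf (-0.17 ± 0.76) were nearer 0, and Mfsd2a was at 0.84 ± 0.34 (0.328). The median was -1.36, 9 of 10 were below 0, and none passed, beside 0.074% of genes. An unadjusted p under 0.05 was found for 6 members, 5 lower and Mfsd2a higher, and for 13.8% of all genes. Groups did not overlap, lower under the drug, for Cdh5, Flt1 and Tek and for 14.4% of all genes.

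Replicate 1 of the untreated MSA striatum stood apart in its cortical neuron genes. Their sum was 1241 CPM, where the other 2 untreated libraries had 229 and 200 CPM and the treated pair 136 and 213 CPM. The sum of its striatal projection neuron genes was 6930 CPM, where the other 2 had 10441 and 10728 CPM. That low sum was not its own alone, since the treated pair had 6993 and 10960 CPM. Without that untreated replicate, 6 members fell with the drug: Flt1 (-2.34 ± 0.43, adjusted p = 0.0247), Cdh5 (-2.39 ± 0.46, 0.0247), Tek (-2.19 ± 0.43, 0.0247), Cldn5 (-1.67 ± 0.35, 0.0285), Pecam1 (-1.87 ± 0.41, 0.0294) and Abcb1a (-1.89 ± 0.49, 0.0463), where 2.25% of all genes were called lower. Kdr, Slc2a1, Mfsd2a and Vwf were not called. The 2 remaining untreated libraries had 33.0 and 33.4% of assigned reads on transcripts over 5000 bases, against 29.6 and 31.0% in the treated pair. Choroid plexus genes summed to 4046 CPM in 1 of them. The part of either in the result was not tested by that fit. With the long-transcript share as a covariate and all libraries kept, an alternative chosen after seeing the data, the median of the members was -0.45 in place of -1.36 and none was called.

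MSA against control striatum under PLX5622 gave a median of -1.02, with -1.87 ± 0.67 for Cdh5 (adjusted p = 0.440), -1.71 ± 0.73 for Flt1 and -1.47 ± 0.65 for Abcb1a (0.451). Pecam1, Cdh5, Flt1, Abcb1a and Tek were lower in both MSA libraries than in both controls, as were 20.8% of all genes, and no member and 0.222% of genes passed. The median was -0.14 with the long-transcript share as a covariate. Without drug the median for MSA against control was 0.59, with Kdr highest at 2.24 ± 0.83 (adjusted p = 0.999; 3.16 and 1.42 CPM in controls, 1.79, 17.1 and 12.6 CPM in MSA mice) and 0.0336% of genes called. The drug in control striatum gave 0.42, with Kdr again highest at 1.62 ± 0.87 and 0.336% of genes called. The interaction had a median of -1.65, led by Kdr (-2.97 ± 1.18, adjusted p = 0.802), Cdh5 (-2.46 ± 0.88) and Flt1 (-2.37 ± 0.97), with 0.0874% of genes called. No member was called in these 3 comparisons. The drug comparison in MSA striatum shares its untreated MSA libraries with MSA against control without drug. It shares its treated ones with MSA against control under PLX5622, and both with the interaction. These results are therefore not separate observations.

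In cortex the members differed less between groups, and 1 library decided the size of several values. Flt1 was at 70.5, 26.0 and 11.2 CPM in untreated controls, 28.9, 27.9 and 56.7 CPM in treated controls, 49.9, 33.0 and 49.2 CPM in untreated MSA mice and 16.7, 15.9 and 53.3 CPM in treated MSA mice. All 4 groups overlapped, replicate 1 of the untreated controls and replicate 3 of the treated MSA mice being far above their fellows. Tek was at 3.05, 3.22 and 4.29 CPM in treated MSA mice, below the 13.3, 5.96 and 9.38 CPM of untreated MSA mice. Cldn5 was lower too, at 26.5 to 31.4 CPM against 35.9 to 46.0 CPM. Mfsd2a was at 40.2, 38.6 and 45.0 CPM, above 24.1, 11.4 and 19.4 CPM. Without overlap, 6.67% of all genes were lower and 8.08% higher under the drug. None of these members passed for the drug in MSA cortex, where 0.0548% of genes were called. The log2 changes were -1.47 ± 0.49 for Tek, -0.58 ± 0.37 for Cldn5 and 1.12 ± 0.45 for Mfsd2a, each with adjusted p = 0.921. The median there was -0.61 and became -1.30 without replicate 3 of the treated MSA mice, with none called. Without replicate 1 or replicate 2 of that group, Pecam1 and Vwf turned sign and the other members kept theirs.

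The other cortex comparisons called no member either. The drug in control cortex gave a median of 0.14 (0.486% of genes called), or 0.78 without replicate 1 of the untreated controls. MSA against control gave 0.38 without drug, where 0.0% of genes passed by edgeR (514 of 14600 had an unadjusted p under 0.05, none of them a member, and DESeq2 called 3 genes), and 1.19 without that same library. Under PLX5622 the median was -0.40 (0.151% called), or -1.25 without replicate 3 of the treated MSA mice. For the interaction it was -0.75 (0.0959% called). It became -1.62 without replicate 1 of the untreated controls and -1.49 without replicate 3 of the treated MSA mice. Each library left out here made the median larger in size, but not every library did so for single members. Replicate 3 of the untreated controls had 60.1% of reads assigned and a long-transcript share of 20.8%. Without it Flt1 and Pecam1 turned sign for MSA against control without drug. Abcb1a, Flt1, Cdh5, Slc2a1 and Kdr did so for the drug in control cortex. The other members kept their sign.

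**Figure D3:**
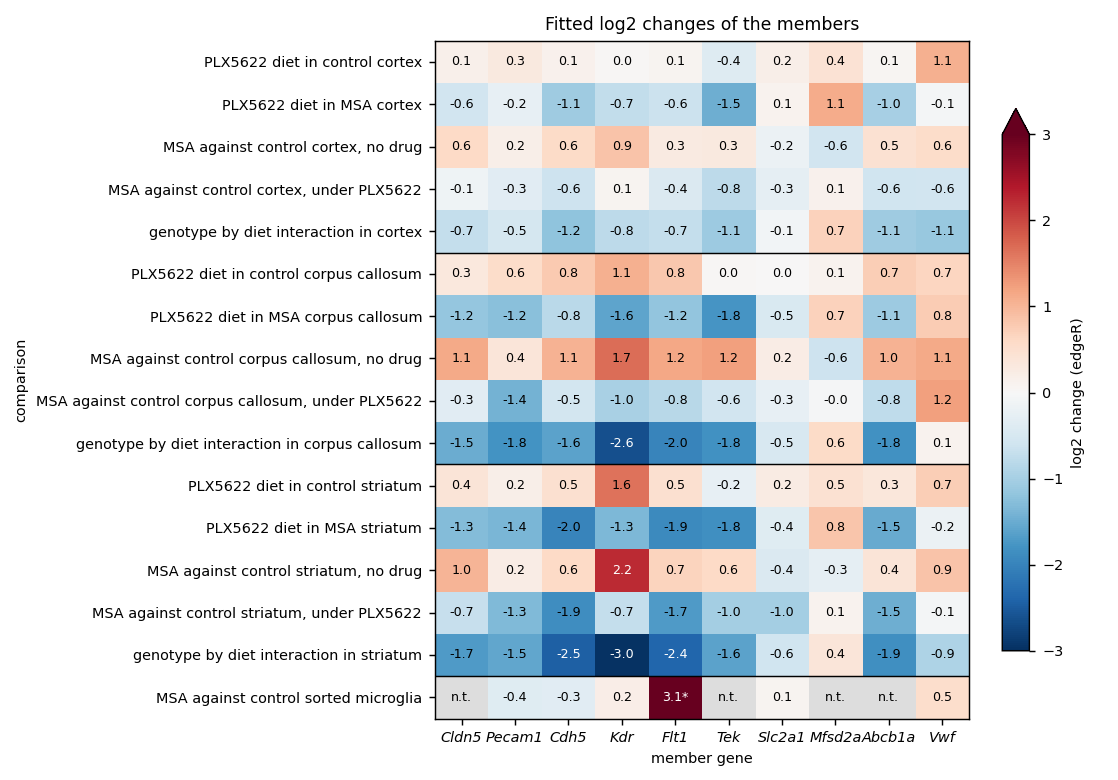
Fitted log2 change of each member (columns) in 15 bulk comparisons and in microglia (rows), colour limited to log2 of 3; an asterisk marks adjusted p under 0.05 and n.t. a gene too low to test. The asterisk stands only at Flt1 in microglia, and the MSA drug and interaction rows are mostly below 0, with Mfsd2a above 0 in each of them.

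Between regions of untreated control mice, all 10 members had lower values in corpus callosum than in cortex, with a median of -1.06 and -1.54 ± 0.72 for Cdh5 as the most negative (adjusted p = 0.330), and 4 with an unadjusted p under 0.05, as had 14.1% of all genes. None passed, beside 2.94% of 16080 genes. Leaving out replicate 1 of the untreated control cortex moved the median to -0.41. Callosum against striatum had a median of -0.98, from -1.47 ± 0.77 (Cdh5) to 0.25 ± 0.97 (Kdr), with 6.09% of genes and no member called. Striatum against cortex had a median of -0.09, from -1.10 ± 0.98 (Kdr) to 0.37 ± 0.43 (Slc2a1), with 12.9% of genes and no member called. In a fit of callosum and striatum alone, where 9.21% of 15041 genes were called lower in callosum, so were 4 members: Flt1 (-1.34 ± 0.33, adjusted p = 0.0161), Pecam1 (-1.24 ± 0.33, 0.0209), Slc2a1 (-0.82 ± 0.23, 0.0263) and Cdh5 (-1.53 ± 0.46, 0.0398).

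Most members varied together from library to library. After each region's mean was subtracted, the log2 CPM of 7 members (Cldn5, Pecam1, Cdh5, Kdr, Flt1, Abcb1a and Tek) correlated in all 21 pairs, with Pearson's r of 0.49 to 0.89 and a median of 0.71 over the 30 bulk libraries. These 7 leave out Slc2a1, Vwf and Mfsd2a, which had the lowest median r with the other members. The high r among the 7 thus follows in part from that choice. Flt1 went most closely with Cdh5 (r = 0.89), Pecam1 (0.86) and Abcb1a (0.86). Slc2a1 correlated with Pecam1 (0.71) and hardly with Cldn5 (0.08), and Vwf had a median r of 0.45 with the other 9. Mfsd2a stood apart, with negative r for 7 of the other 9, lowest with Tek (-0.61) and Cldn5 (-0.53), and 0.42 with Slc2a1. These are descriptions over libraries that share groups, depth and RNA quality.

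**Figure D4:**
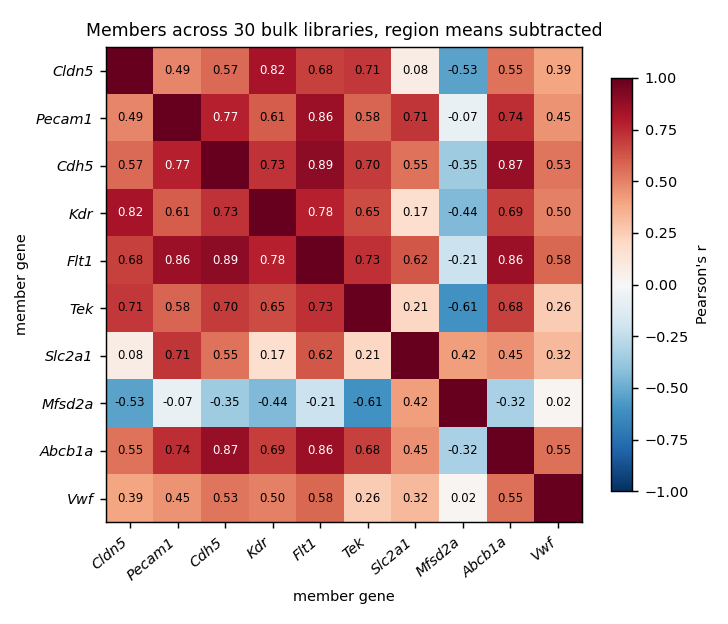
Pearson's r between members over the 30 bulk libraries, from log2(CPM + 0.5) with each region's mean subtracted. The Mfsd2a row is mostly negative, and Flt1 and Cdh5 reach 0.89.

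A measure of transcript length moved with the members. The share of assigned reads on transcripts over 5000 bases, leaving the members out, was 20.8 to 33.4% in bulk libraries, and its r with the mean z-score of the 10 members was 0.76 over the 30 libraries (0.84 in 12 cortex, 0.60 in 9 callosum and 0.88 in 9 striatum libraries). The r was highest for Flt1 (0.78, 6248 bases), then 0.67 for Cdh5 (3972 bases), 0.66 for Pecam1 (3315), 0.63 for Abcb1a (5145), 0.57 for Kdr (5419) and 0.56 for Vwf (8780). It was 0.53 for Slc2a1 (2560 bases), 0.46 for Tek (4674), 0.45 for Cldn5 (1413) and -0.02 for Mfsd2a (2134), so its order was not that of transcript length. The assigned share had an r of 0.49 with the mean z-score, log2 depth 0.21, summed pericyte and smooth muscle genes 0.60, choroid plexus genes 0.56 and homeostatic microglia genes -0.08. Higher than the long-transcript share were summed barrier transporters (0.86) and barrier Wnt genes (0.81), and endothelial identity genes had 0.70. Negative values were found for VEGF and angiopoietin genes (-0.65), oligodendrocyte genes (-0.54), platelet genes (-0.50) and red blood cell genes (-0.39). The other summed lists had 0.10 to 0.60. What part these have in the members' shared variation was not tested beyond the covariate fits.

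**Figure D5:**
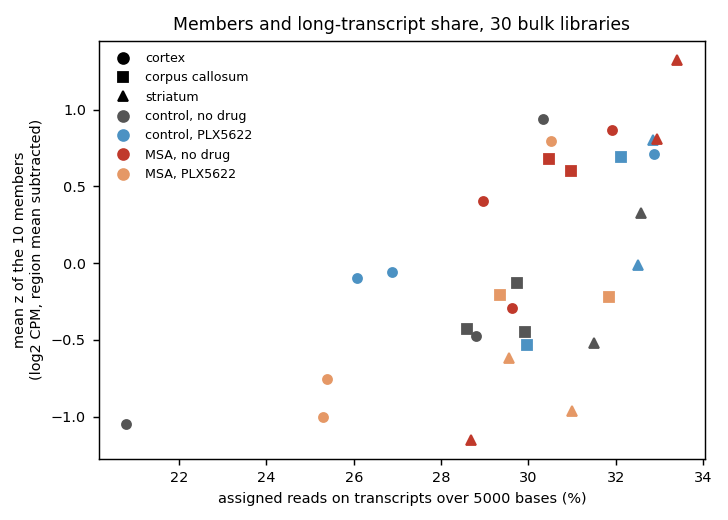
Mean z-score of the 10 members against the percent of assigned reads on transcripts over 5000 bases, 1 point per bulk library, shape for region and colour for group. The library with the lowest share, 20.8%, lies near the bottom, and MSA striatum without drug holds both the highest and the lowest mean.

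Among 12519 genes with enough reads, the 8 whose pattern was most like the mean of the members were Adgrf5 (r = 0.92), an endothelial adhesion receptor, and Snrnp200, L1cam, Grin1os, Fry, Abca3, Ubap2l and Dync1h1 (0.88 to 0.90). The 5 most like Flt1 were Adgrf5 (0.92), Lrp1, Ipo4, Dync1h1 and Grin1os (0.90 to 0.91). Of the 8, all but Grin1os and Ubap2l have transcripts over 5000 bases, where the median of all genes is 2126.

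The neighbouring pathways gave few calls within regions. Of 95 genes on 6 lists around the members, the single one called by drug or genotype in bulk tissue was Slco2b1, an organic anion transporter listed with the barrier transporters. It fell with PLX5622 in control cortex (log2 -1.99 ± 0.31, adjusted p = 0.00809), control striatum (-1.72 ± 0.23, 0.00480) and MSA striatum (-1.98 ± 0.23, 0.00592), and had -1.63 ± 0.30 (0.110), -2.07 ± 0.40 (0.0711) and -1.74 ± 0.41 (0.312) in MSA cortex, control callosum and MSA callosum. Its level was 25.4 to 47.9 CPM in the 16 bulk libraries without drug, 3.73 to 18.2 CPM in the 14 under PLX5622 and 2626 to 2744 CPM in sorted microglia. Homeostatic microglia genes fell together with it across these groups (their sums are given above), and the part of lost microglia in its change was not tested.

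The other transporters, the endothelial identity genes (25 genes), the tight junction partners (10), the VEGF and angiopoietin ligands and co-receptors (15), the barrier Wnt genes (15) and the genes of fenestrated or inflamed endothelium (10) had none called by drug or genotype. For the drug in MSA striatum, where the members' median was -1.36, their medians were -0.60 for endothelial identity (21 of 25 below 0), -0.45 for barrier transporters (16 of 20), -0.31 for tight junction partners (8 of 9 tested), -0.27 for barrier Wnt genes (12 of 15), 0.28 for VEGF and angiopoietin genes and 0.07 for the fenestrated or inflamed list. For MSA against control callosum without drug they were 0.38 (23 of 25 above 0), 0.53 (18 of 20), 0.42 (7 of 10), 0.55 (14 of 15), 0.14 and 0.52 (7 of 7 tested). Pericyte and smooth muscle genes had -0.62 and 0.23 in these comparisons.

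Between untreated regions more of these genes passed. Striatum was below cortex in Cd34, a sialomucin of endothelial and other cells (log2 -2.80 ± 0.38, adjusted p = 3.29e-05), in Egfl7, a protein secreted by endothelium (-1.90 ± 0.47, 0.00702), and in Palmd (-1.44 ± 0.42, 0.0233). Cd34 was at 90.7 ± 16.3 CPM in cortex, 59.3 ± 9.05 CPM in callosum (SD, n = 3 each) and 13.3 ± 1.44 CPM in striatum (n = 2), with no overlap between striatum and the other two. Without overlap, 18.1% of all genes were likewise lower in striatum than in cortex, and 31.1% were higher in callosum than in striatum. Meningeal fibroblast genes, a sign of the tissue's surface, had a median of -2.12 for striatum against cortex, with 4 of 10 lower by the test. Over all genes, 1017 of 16080 were called lower in striatum. The part of surface tissue in these differences was not tested. In callosum the tight junction protein Jam3 was above cortex (1.38 ± 0.25, 0.00152) and Palmd below it (-1.30 ± 0.36, 0.0498).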

How the data were processed

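The authors deposited 2 tables over the same 24940 genes and 36 libraries. The first holds raw read counts, as whole numbers, per the file headers. The second holds TPM as the authors deposited them, whose sum over the listed genes falls short of the full TPM scale for a reason not given in these sources. The submitters' processing notes name STAR, HOMER and DESeq2 and the build mm10. Strand use was not stated. Members and lists were chosen with earlier results of these data known.

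Fits took the 4 groups of each region, the 6 microglia libraries, or all 30 bulk libraries for regions. After filterByExpr (minimum count 10) and TMM scaling, edgeR 4.0.16 in R 4.3.3 gave two-sided quasi-likelihood tests (robust), Benjamini-Hochberg adjusted over all genes tested, with a threshold of 0.05. The code was tested on simulated data. All 10 members passed the filter in bulk and 6 in microglia. CPM divides by assigned reads, the SD is over libraries and the floor is 3 counts. The text names all members, up to 4 called genes of smallest p per list, and the genes of most similar pattern (8 for the mean of the members, 5 for Flt1); other listed genes were named after their values were seen. Alternatives comprised RLE scaling, DESeq2 1.42.0, no filter, a replicate block, 2 groups alone and leaving out each library. Added after seeing the data were fits without libraries under 70% assigned and with the assigned or long-transcript share as a covariate.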

Additional observations from a re-analysis of the deposited data

How the results depend on the processing

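Of 259 counts of called members under alternatives, 246 equalled the main count and 13 did not. In fits of 2 groups alone, members called went from 0 to 1 for MSA against control callosum without drug (Flt1, log2 1.16; 273 genes called in all), to 1 for MSA against control striatum under PLX5622 (Flt1, -1.71; 30 genes) and to 4 for callosum against striatum (2595 genes). DESeq2 called 1 for the drug in MSA striatum (Tek, -1.87; 268 genes). Leaving out 1 library at a time gave 0 to 1 for the drug in control callosum, 0 to 3 for the callosum interaction and 0 to 6 for the drug in MSA striatum, the upper counts beside 85, 384 and 824 genes in all. Without libraries under 70% assigned the callosum interaction called 1 (Flt1, -2.49; 160 genes). The long-transcript covariate called 3 for callosum against cortex (Flt1, Cdh5 and Pecam1; 1108 genes), and the assigned-share covariate called 0 in microglia in place of 1 (9 genes). Signs turned with each library left out in turn not only in the cortex cases given above, and the following are examples. Flt1 with the drug in control callosum ran from -0.36, without control PLX5622 replicate 1, to 1.44 (main 0.81). Cldn5 in the callosum interaction ran from -2.21 to 0.21, the latter without that library (main -1.48). Slc2a1 in MSA against control striatum under PLX5622 ran from -1.65 to 0.070, the latter without control PLX5622 replicate 2 (main -1.03). The cause was not tested. Of 186 member values, 106 kept their sign in every alternative run. The largest main value that did not was that of Pecam1 in the striatum interaction, at -1.55.

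Whether a replicate number marks an animal is not in the labels. Within a region, same-numbered libraries of different groups deviated with a mean r of -0.08 in cortex, -0.08 in callosum, 0.15 in striatum and 0.02 in microglia. Such pairs differ in genotype or diet, so they cannot show whether a number marks an animal. Between regions, within 1 genotype and diet, same-numbered libraries had a mean r of 0.13, and other numbers -0.06. These 25 same-numbered pairs ran from -0.52 to 0.59, with 13 over 0.1, so a shared animal is left undecided. With the replicate block, 4 members were called for the drug in MSA striatum (Tek, Abcb1a, Flt1 and Cdh5), 4 for MSA against control striatum under PLX5622 (Abcb1a, Flt1, Cdh5 and Slc2a1) and 1 for the striatum interaction (Flt1, -2.67), where 1349, 1908 and 44 genes were called in all. Flt1 in microglia was 3.14 with the block.

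Calls over all genes ranged widely with the setting. For the drug in control and MSA mice they were 22 to 128 and 0 to 40 in cortex, 16 to 164 and 0 to 137 in callosum, and 29 to 99 and 0 to 1349 in striatum. For genotype without and with drug they were 0 to 3 and 12 to 51 in cortex, 7 to 273 and 0 to 137 in callosum, and 0 to 31 and 13 to 1908 in striatum. For the interactions they were 10 to 31, 0 to 384 and 2 to 44, in microglia 9 to 254, and between regions 141 to 1108 (callosum and cortex), 699 to 3024 (striatum and cortex) and 207 to 2595 (callosum and striatum). Groups of 2 and as few as 4.36 M assigned reads limit what could be detected for the lower members.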
